A study of Mus musculus with 8 samples.

Results

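The cell division genes are 44 genes of DNA replication, mitosis and the switch between them, described here in sorted macrophages of the mouse mammary gland. They were taken from a list of symbols, and each was represented by the probe set with the highest mean signal among those that carry its symbol alone. Of the 44 genes 43 were measured, since Ccnb1, cyclin B1, has no probe set of its own symbol, and 41 passed the filter on low signals. These 41 stand among 13041 genes that passed the same filter. The list splits into 10 S phase genes, of which 9 passed (the Mcm2 to Mcm7 helicase, Pcna, Rrm1 and Rrm2), 7 genes of the entry into S phase, all of which passed, and 27 mitotic genes, of which 25 passed. Tyms and Kif20a did not pass: Tyms, thymidylate synthase, read 3.2 to 137.7 on the 8 arrays, and Kif20a, a motor of the central spindle, read 7.6 to 129.3.

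MMTV-iFGFR1 transgenic mice express a fibroblast growth factor receptor 1 that a synthetic dimerizer switches on. The MMTV promoter that drives it works in mammary epithelium. FVB females, 6 weeks old when treatment began, carried the transgene or were littermates without it, and both were given dimerizer over 48 hours or 4 weeks, so that the control pools share the age and the drug. Cells stained with a Cd11b-PE antibody were sorted from digested mammary tissue, and each array holds the RNA of 3 mice together. There are 8 arrays in 4 groups of 2 pools, one group for each genotype and time. For transgenic 4 weeks pool 2 one descriptive label calls the mice non-transgenic while the title, source and genotype call them transgenic, and the latter was used; results at 4 weeks rest on that reading.

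A dividing cell passes through a fixed order of steps. In G1 the E2F factors switch on the cyclin E genes and the genes that load and fire replication origins; in S phase the Mcm helicase, the Pcna clamp and ribonucleotide reductase copy the genome; and in G2 a second programme, which uses CHR elements, read by MuvB with B-Myb or Foxm1, and CCAAT boxes, bound by NF-Y, switches on cyclin B, the mitotic kinases, the kinetochore and the spindle. Tissue macrophages can renew themselves by local division, and monocytes entering a tissue may divide there. Transcripts of division genes in a sorted pool come mainly from those of its cells that are in cycle. The share of such cells, and whether they were macrophages or other cell types, was not measured. In RNA of whole pools, fewer dividing cells and less of the transcript per dividing cell cannot be told apart.

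The letters of these elements were searched in the promoters of these genes. RefSeq promoter sequences on the GRCm38.p6 build, 250 bases before to 50 bases after each start, were at hand for 36 of the 44 genes. The letters TTTGAA of the CHR element, searched on both strands, occurred in 15 of 22 mitotic genes, 68.2%, and in 1 of 9 S phase genes, 11.1%, against 20.2% of 27025 genes in the table. The E2F element was searched as its cores TTCCCGC on either strand, or TTGGCGC on either strand, or else TTCGCGC on either strand, some of which overlap. One or more of them occurred in 5 of 9 S phase genes, 55.6%, and in 3 of 22 mitotic genes, 13.6%, against 9.20% of all genes. CCAAT was common to both, in 8 of 9 S phase and 19 of 22 mitotic genes against 41.1% of all genes. A match describes these letters only and is not a binding site.

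The promoters of 5 genes, shown because their genes carry the contrasts described here, are printed below from 250 bases before the start up to the start, with CHR, CCAAT and E2F matches on either strand in capitals; adjoining E2F cores of opposite strands overlap and run together. Mcm5 (chr8:75109259-75109508, plus strand) and Mcm6 (chr1:128359706-128359955, minus strand) stand for the S phase genes, with E2F and CCAAT letters and no CHR. Cdc20 (chr4:118437344-118437593, minus strand), the activator of mitotic exit, has the CHR and CCAAT pair of the mitotic genes. Mki67 (chr7:135716380-135716629, minus strand), the proliferation marker, holds all 3 kinds. Birc5 (chr11:117848987-117849236, plus strand), the member with the smallest p for genotype over both times, holds none of these letters in its window.
Mcm5: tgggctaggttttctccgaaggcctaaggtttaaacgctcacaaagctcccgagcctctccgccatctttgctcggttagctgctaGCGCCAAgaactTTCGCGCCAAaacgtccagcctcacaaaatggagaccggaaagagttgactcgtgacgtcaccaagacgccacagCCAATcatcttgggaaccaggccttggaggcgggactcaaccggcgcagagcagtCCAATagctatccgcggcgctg
Mcm6: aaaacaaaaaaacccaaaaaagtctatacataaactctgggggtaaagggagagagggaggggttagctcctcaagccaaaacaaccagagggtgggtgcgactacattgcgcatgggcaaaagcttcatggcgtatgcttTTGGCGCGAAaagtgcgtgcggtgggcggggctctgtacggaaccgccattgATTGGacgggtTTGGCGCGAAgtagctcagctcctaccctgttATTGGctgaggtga
Cdc20: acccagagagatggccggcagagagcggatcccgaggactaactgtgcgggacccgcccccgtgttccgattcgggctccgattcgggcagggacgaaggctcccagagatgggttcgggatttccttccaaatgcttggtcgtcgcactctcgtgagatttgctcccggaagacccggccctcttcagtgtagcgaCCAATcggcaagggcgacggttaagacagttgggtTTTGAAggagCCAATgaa
Mki67: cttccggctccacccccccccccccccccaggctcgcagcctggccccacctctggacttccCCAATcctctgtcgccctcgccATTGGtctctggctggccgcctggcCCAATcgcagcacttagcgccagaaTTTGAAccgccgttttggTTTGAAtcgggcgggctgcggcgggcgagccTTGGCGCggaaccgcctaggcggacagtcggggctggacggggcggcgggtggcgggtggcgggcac
Birc5: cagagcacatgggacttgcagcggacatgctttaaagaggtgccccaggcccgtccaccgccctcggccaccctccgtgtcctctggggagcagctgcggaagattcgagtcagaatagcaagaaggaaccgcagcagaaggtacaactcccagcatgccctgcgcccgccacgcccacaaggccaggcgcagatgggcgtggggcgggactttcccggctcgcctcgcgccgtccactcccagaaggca

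The arrays were scaled by the authors to a common trimmed mean of 500, and their median signals lay between 96.4 and 126.9. Of 7 macrophage markers, Csf1r read 68311 to 93065 and Adgre1, which encodes F4/80, 9842 to 14627. Cd68 read 7347 to 12975, Mertk 2274 to 4406, Fcgr1 2195 to 7883.5 and Cx3cr1 488.5 to 3088. The fibroblast genes Col3a1 and Dcn read 13130 to 32564.5 and 12024 to 31116, so these signals do not give the purity of the sort. Itgam, which encodes Cd11b itself, read 46.8 to 545.4 and lay below the array median on control 4 weeks pool 2. That pool also stood apart in RNA quality: its beta-actin 3' to 5' ratio was 37.0, against 6.84 to 13.9 on the other 7 arrays. Its Gapdh ratio was 12.1, against 6.97 to 8.58. List medians at 4 weeks, and the single values said to rest on this pool, are given with and without it. Signals of different genes are not compared, because a probe set's brightness depends on its probes.

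The first feature of the cell division genes was their common movement between pools of the same group. In controls at 48 hours, 38 of 41 genes were higher in pool 2 than in pool 1, against 52.3% of all 13041 genes, and their median difference was 0.99 log2 units where that of all genes was 0.03. Prc1, which bundles microtubules between the separating chromosomes, differed by 2.25 log2 units between these 2 pools, and Cenpe, a kinetochore motor, by 1.91. The exceptions were Pcna, Cdc45 and Tpx2, which were higher in pool 1. Transgenic pools at 48 hours went the other way, with pool 2 higher for 4 of 41 genes (47.5% of all genes) and a median difference of −0.61. At 4 weeks pool 2 was higher for 12 of 41 genes in controls (52.0% of all genes; median −0.44) and for 8 of 41 in transgenics (44.4%; median −0.38). Pool numbers carry no order, and these signs say only that the genes went together. The median SD within a group was 0.62 log2 units over the 41 genes (0.48 for S phase, 0.63 for mitotic genes) against 0.37 over all genes; it was lowest for Cenpa at 0.11 and highest for Ube2c at 1.11.

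**Figure D1:**
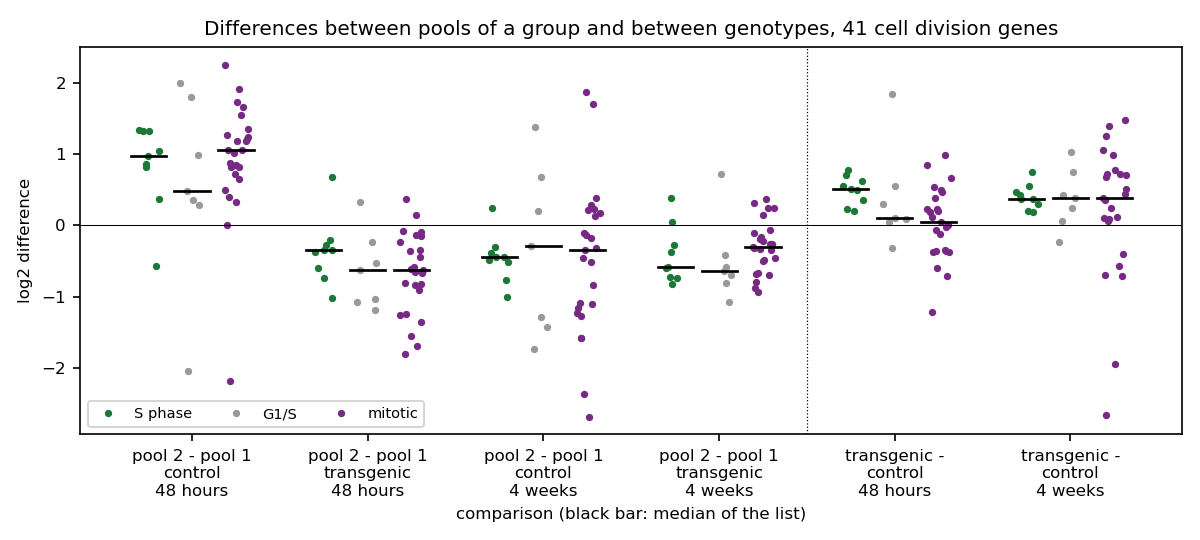
Log2 difference of each of the 41 cell division genes (points; green S phase, grey G1/S, purple mitotic) between the 2 pools of each group, left of the dotted line, and between genotypes, right of it, with black bars at list medians. The control pools at 48 hours differ by a median of 0.99 over the 41 genes, more than the genotypes do at either time.

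Markers of other cell types varied between pools too, not always in the order of the division genes. Fibroblast markers, all 7 of 7 measured and above the filter, summed to 37782 in control 48 hours pool 1, the pool lowest in S phase genes, and to 84901 in pool 2; the sums were 71577 and 74681 in transgenics at 48 hours, 75931 and 56504 in controls and 84672 and 65160 in transgenics at 4 weeks. Luminal epithelial markers, 11 of 12 measured above the filter, summed to 4868 and 5220 in controls and 13261 and 13891 in transgenics at 48 hours, and to 15414 and 10457 against 12837 and 7573 at 4 weeks. The luminal sums were apart by genotype at 48 hours and overlapped at 4 weeks. Neutrophil markers, 6 of 7 measured above the filter, summed to 10362 and 12405 in controls and 5067 and 5999 in transgenics at 48 hours, and to 5696 and 17320 against 3715 and 2626 at 4 weeks. The neutrophil sums were apart by genotype at both times, and most of each sum was S100a8 and S100a9. With every gene counted equally, the mean neutrophil level relative to the 8 arrays was 0.57 and 0.055 log2 units in controls and −0.28 and 0.056 in transgenics at 48 hours, which overlap, and −0.11 and 1.12 against −0.52 and −0.90 at 4 weeks, which do not. Ltf, lactoferrin, went the other way at 48 hours, at 277 and 331 in controls and 620 and 866 in transgenics. Macrophage markers, 7 of 7, summed to 125328 and 109498 in controls and 99338 and 103436 in transgenics at 48 hours. The 4 weeks sums were 113731 and 114384 against 102487 and 108512. These sums were lower in transgenics without overlap at both times, and most of each was Csf1r. With every gene counted equally, the macrophage levels overlapped, at 0.12 and −0.05 against 0.05 and −0.06, then 0.18 and −0.48 against 0.02 and 0.22. T and NK cell markers, 4 of 5 measured above the filter, summed to 733 and 744 in controls and 1037 and 764 in transgenics at 48 hours. At 4 weeks they summed to 410 and 604 against 1338 and 1031, apart by genotype at both times. With genes counted equally the T and NK cell levels overlapped at both times. No defining marker was at 0, as MAS5 gives every probe set a positive signal. The part of these other cells in the differences below was not tested.

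**Figure D2:**
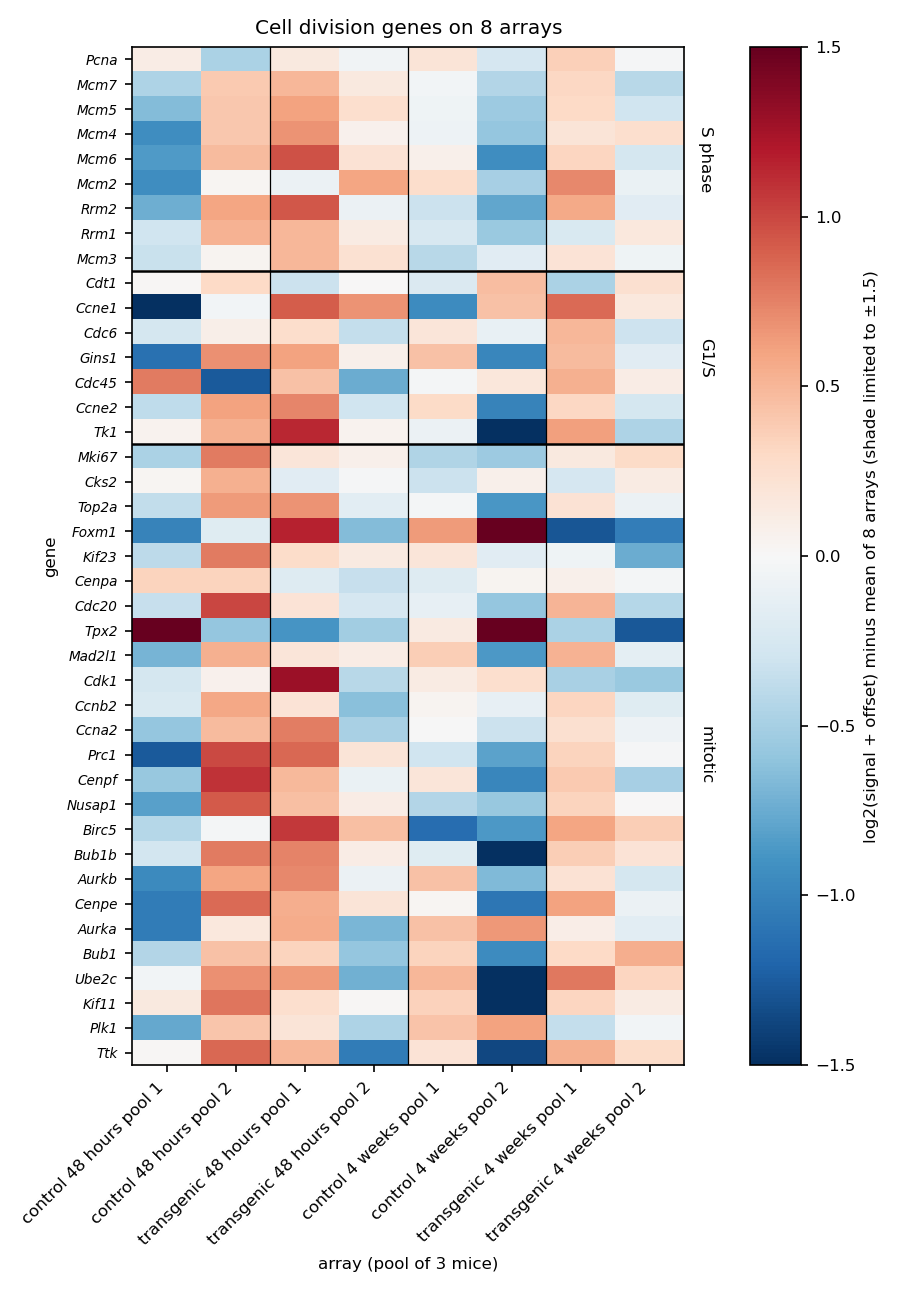
Level of each of the 41 tested cell division genes (rows, by list) on the 8 arrays (columns) as log2 of signal plus offset minus the gene's mean over the arrays; shades stop at 1.5 either way. Of the 41 genes 16 are highest on control 48 hours pool 2 and 14 on transgenic 48 hours pool 1, and 16 are lowest on control 4 weeks pool 2, where Foxm1 and Tpx2 are dark red.

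Over the 8 arrays, 14 of 25 mitotic genes were highest on control 48 hours pool 2 and 5 on transgenic 48 hours pool 1, and 11 were lowest on control 4 weeks pool 2. The S phase genes were ordered otherwise: 6 of 9 were highest on transgenic 48 hours pool 1, 4 were lowest on control 48 hours pool 1 and 3 on control 4 weeks pool 2. By contrast Foxm1, Tpx2, Aurka and Plk1, 4 of the mitotic genes, were highest on control 4 weeks pool 2.

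The comparison of transgenic with control pools asks whether macrophages next to epithelium with an active receptor carry more or less of the division programme. No member passed an adjusted p of 0.05 in limma at either time, and neither did any of the 13041 genes (0%); without adjustment, 3 of 41 members were under 0.05 at 48 hours, where 4.07% of all genes were, and 4 of 41 at 4 weeks, where 5.08% were. At 48 hours 29 of 41 members were on the side of the transgenic pools (54.0% of all genes) with a median log2 difference of 0.20, against 0.04 for all genes. By 4 weeks 34 of 41 were (48.0% of all genes), with a median of 0.38 against −0.02. Separation of the pools was rarer than over all genes at 48 hours: both transgenic pools were above both controls for 3 of 41 members (18.9% of all genes) and below them for 3 (16.1%). At 4 weeks 10 of 41 lay above (14.7%) and 5 below (17.2%).

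Over both times, with time in the fit, 31 of 41 members were on the transgenic side (50.8% of all genes), and 4 of 41 were under 0.05 without adjustment (4.58%): Birc5, Tpx2, Ccne1 and Mcm3. The genotype difference itself was larger at 4 weeks than at 48 hours for 25 of 41 members (45.7% of all genes), and 1 of 41 differed between the times with an unadjusted p under 0.05 (4.74%), which was Foxm1.

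The S phase genes leaned one way at both times. All 9 had positive differences at 48 hours, from 0.20 to 0.78 with a median of 0.51, and all 9 at 4 weeks, from 0.19 to 0.74 with a median of 0.36, and none passed the test. Every probe set of these genes above the filter was positive at 48 hours, 24 of 24, and 22 of 24 at 4 weeks, although probe sets of 1 gene share their transcript. The 48 hours value rests on control 48 hours pool 1, which was low in these genes: without it the median was 0.03 with 5 of 9 positive, and without pool 2 it was 1.08 with 8 of 9. The 4 weeks value likewise rests on control 4 weeks pool 2, without which the median was 0.06 with 6 of 9 positive. With each array's actin ratio in the fit, the S phase median was 0.46 with 9 of 9 positive at 48 hours. In that fit it was 0.21 with 7 of 9 positive at 4 weeks.

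Mcm3, a subunit of the helicase that unwinds DNA at replication origins, was the S phase gene whose pools separated at both times in its chosen probe set. Its signals were 549.5 and 717 in controls and 1001 and 823 in transgenics at 48 hours, and 517 and 616 against 813 and 666 at 4 weeks. Every transgenic pool was above both controls of its time, by 0.51 (SE 0.28) and 0.36 (SE 0.28) log2 units in the limma fit, with adjusted p = 0.976 and 0.986. Its other probe sets all overlapped at 48 hours, the next brightest at 329 and 488 in controls and 816 and 364 in transgenics. Some of them overlapped at 4 weeks too. The chosen probe set is of the kind that can cross-hybridise, as were those of 7 of the 9 S phase genes against 4 of 25 mitotic genes.
Mcm6, with the E2F cores printed above, read 921 and 2338 in controls and 3284 and 1962 in transgenics at 48 hours, and 1772 and 863 against 2113 and 1398 at 4 weeks. The control pools spanned more than the genotypes differed, and the log2 differences were 0.78 (SE 0.47) and 0.46 (SE 0.47); the first was 0.12 without control 48 hours pool 1 and the second −0.04 without control 4 weeks pool 2. Mcm5 read 1838 and 3835 against 4416 and 3456 at 48 hours and 2772 and 1971 against 3552 and 2336 at 4 weeks, with the same order of pools. Mcm7, of the same ring, read 3159 and 5766 against 6165 and 4839, then 4234 and 3223 against 5431 and 3278, and its groups overlapped at both times.

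The genes of nucleotide supply and the replication clamp overlapped at 48 hours. At 4 weeks both subunits of ribonucleotide reductase lay above the controls (14.7% of all genes), Rrm1 only narrowly. Rrm2, the subunit of ribonucleotide reductase that is made in S phase, read 947 and 2420 in controls and 3073 and 1505 in transgenics at 48 hours, where the groups overlapped. In the later pools Rrm2 read 1268 and 921 against 2376 and 1410, and the groups separated by 0.74 log2 units (SE 0.47). Rrm1, the large subunit, read 579 and 1047 against 1031 and 786 at 48 hours and 603 and 480 against 611 and 805 at 4 weeks, apart by 0.36 (SE 0.34). At 4 weeks the values of 603 and 611 nearly met, and the lowest lay on control 4 weeks pool 2. A second, dimmer probe set of Rrm1 overlapped there, at 87.9 and 107 against 157 and 82.6. Pcna, the sliding clamp of the polymerases, was steady by comparison, at 8146 and 5449 against 8369 and 7260 at 48 hours and 8613 and 6333 against 9696 and 7454 at 4 weeks. Its differences of 0.23 and 0.20 (SE 0.26 each) lay within the spread of its pools.

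Among the genes of S phase entry, Ccne1, cyclin E1, had the smallest p of any member at 48 hours. It read 228 and 1005 in controls and 1975 and 1672 with the transgene, so that the groups did not overlap, and the log2 difference was 1.84 (SE 0.61, adjusted p = 0.976, limma). It was 0.84 without control 48 hours pool 1 and 2.84 without control 48 hours pool 2. Its 4 weeks signals were 527 and 1423 in controls and 1891 and 1158 in transgenics, which overlap. The brighter of its probe sets was used; the other gave 0.61 (SE 0.67) at 48 hours and 1.34 (SE 0.67) at 4 weeks, positive both times. Cdt1, which loads the helicase onto origins, pointed the other way, with 3992 and 4858 in controls and 3149 and 3947 in transgenics at 48 hours, and 3382 and 5437 against 2829 and 4665 at 4 weeks. Its differences were −0.32 and −0.24 (SE 0.31 each), and its probe sets disagreed in sign at both times.

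**Figure D3:**
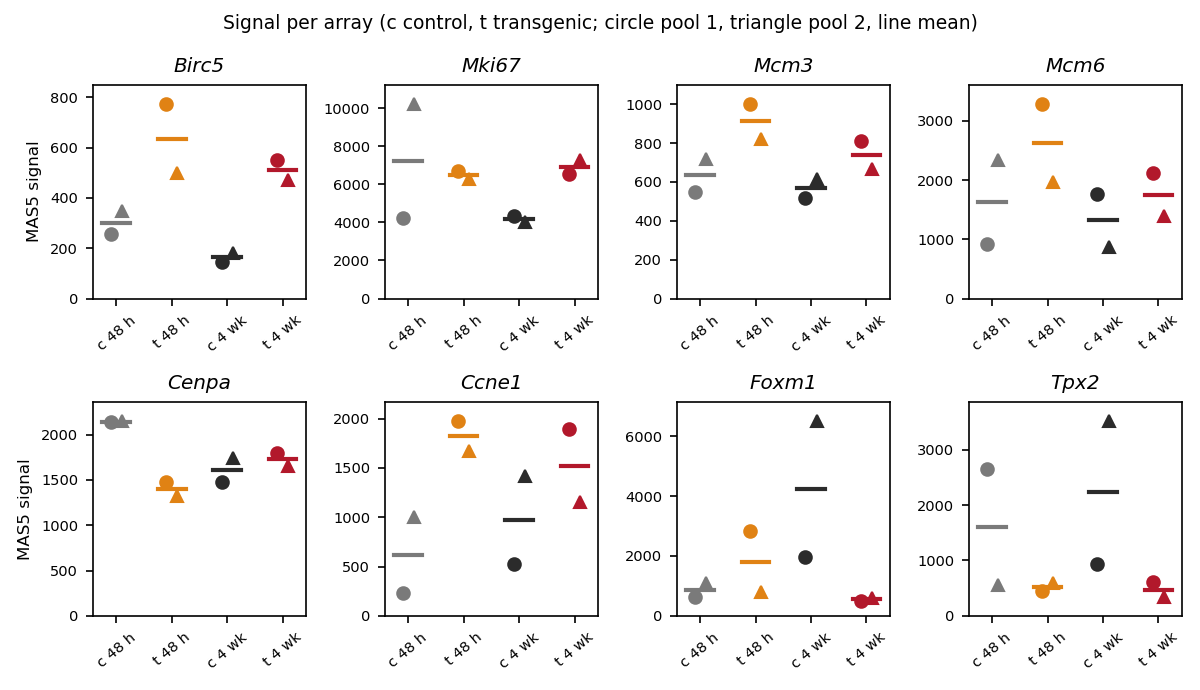
Signal of 8 cell division genes on each array in the 4 groups, with circles for pool 1, triangles for pool 2 and lines at group means; every axis starts at 0. Birc5 is at 469.7 or more on all transgenic and at 348 or less on all control arrays, whereas the control pools of Mki67 at 48 hours stand at 4252 and 10228, either side of both transgenic pools.

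Mitotic genes had no common direction at 48 hours and leaned to the transgenic pools at 4 weeks. Of 25, 14 were positive at 48 hours with a median of 0.04, and 19 at 4 weeks with a median of 0.39, against 0.04 and −0.02 for all genes. The median at 48 hours turned with the control pools: it was −0.55 with 3 of 25 positive without control 48 hours pool 1 and 0.63 with 20 of 25 without pool 2. At 4 weeks it was 0.09 with 15 of 25 positive without control 4 weeks pool 2, and 0.03 with 13 of 25 when each array's actin ratio entered the fit.

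Mki67, a chromosome surface protein of every cycling cell, read 4252 and 10228 in controls and 6714 and 6286 in transgenics at 48 hours. After 4 weeks the values were 4344 and 4047 against 6570 and 7280, so that the controls stood together below the transgenics. The log2 differences were −0.02 (SE 0.34) and 0.72 (SE 0.34, adjusted p = 0.966, limma), the first of which was −0.65 or 0.61 according to which control pool was left out. Top2a, which untangles replicated DNA, overlapped at both times, with 1446 and 2939 against 3004 and 1680 at 48 hours and 1843 and 1016 against 2181 and 1760 at 4 weeks. 

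Birc5, survivin, the subunit of the chromosomal passenger complex that recruits Aurora B and is also known as an inhibitor of cell death, was the member with the smallest p at 4 weeks and over both times. Its single probe set read 256 and 348 in controls and 774 and 498 in transgenics at 48 hours, and 144 and 182 against 553 and 469.7 at 4 weeks. All 4 transgenic arrays were above all 4 controls. The differences were 0.98 (SE 0.34, adjusted p = 0.976) and 1.48 (SE 0.34, adjusted p = 0.673), and 1.23 over both times (SE 0.24, adjusted p = 0.738), each in limma. By p it was number 5 of 13041 genes over both times, with an unadjusted p of 0.0003, and with 41 members looked at this is a description. The difference stayed between 0.68 and 1.63 at either time when single pools were left out. Aurkb, the kinase of the same complex, had 0.50 (SE 0.55) at 48 hours and 0.09 (SE 0.55) at 4 weeks.

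Foxm1, the factor that drives mitotic genes, and Tpx2, which activates Aurora A on the spindle, opposed the list at 4 weeks. Foxm1 read 612 and 1098 in controls and 2821 and 788 in transgenics at 48 hours, and 1975 and 6507 against 497 and 597 at 4 weeks. Its log2 difference was 0.84 (SE 0.62) at 48 hours and −2.65 (SE 0.62, adjusted p = 0.673, limma) at 4 weeks, and the difference between the times was −3.50 (SE 0.88, adjusted p = 0.988). The 4 weeks value was −1.80 without control 4 weeks pool 2. A second, dimmer probe set of Foxm1 gave −0.48 (SE 0.57) and −0.51 (SE 0.57), so that the change of sign between times belonged to the brighter one alone.
Tpx2 read 2653 and 563 in controls and 448 and 588 in transgenics at 48 hours, which overlap, and 941 and 3516 against 606 and 336 at 4 weeks, which do not. The 4 weeks difference was −1.94 (SE 0.71, adjusted p = 0.965, limma), and −1.01 without control 4 weeks pool 2. Its 3 other probe sets gave −0.02, −0.21 and −0.97 there. Aurka, the kinase that Tpx2 activates, and Plk1, which drives entry into mitosis, were also below both controls at 4 weeks, with differences of −0.57 (SE 0.50) and −0.71 (SE 0.61). All 4 of these genes were highest on the pool with the actin ratio of 37.0. Plk1 was above the array median on 3 arrays, all of them controls, so it passed the filter through control pools alone. Its 4 weeks signals were 111.6 and 130.3 in controls and 52 and 72.4 in transgenics. With each array's actin ratio in the fit the 4 weeks differences of Foxm1 and Tpx2 were −2.11 and −1.17.

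Of the cyclins with Cdk1 and Cks2, 4 of 6 were positive at 48 hours (54.0% of all genes), with a median of 0.15. At 4 weeks 5 of 6 were positive (48.0% of all genes), with a median of 0.18. Without control 48 hours pool 1 the first was 2 of 6 with a median of −0.36. Without control 4 weeks pool 2 the second was 4 of 6 with a median of 0.06. Cks2, which helps Cdk1 bind its targets, read 5510 and 7793 in controls and 4812 and 5332 in transgenics at 48 hours, below without overlap by a log2 difference of −0.37 (SE 0.25), or −0.12 without control 48 hours pool 2. After 4 weeks Cks2 read 4325 and 5672 against 4543 and 5862, in which the genotypes were interleaved. Cdk1, the kinase that starts mitosis, read 779 and 982 against 2328 and 699 at 48 hours and 1022 and 1123 against 663 and 632 at 4 weeks, the latter apart by −0.70 (SE 0.45).

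Of the kinetochore and checkpoint genes, 3 of 7 were positive at 48 hours and 7 of 7 at 4 weeks, with medians of −0.06 and 0.73. The 4 weeks value rests on control 4 weeks pool 2, where 6 of the 7 genes were lowest: without it 5 of 7 were positive with a median of 0.20. At 48 hours the median was −0.57 with 0 of 7 positive without control 48 hours pool 1, and 0.71 with 5 of 7 without pool 2. Cenpa, the histone that marks centromeres, gave the closest replicates of all members, at 2141 and 2149 in controls and 1477 and 1328 in transgenics at 48 hours. The groups were apart by −0.60 (SE 0.23, adjusted p = 0.976, limma) there and mixed at 4 weeks, with 1477 and 1744 against 1792 and 1659. A second, dimmer probe set of Cenpa was also lower in transgenics at 48 hours, at 502 and 542.6 against 187.8 and 295.5. At 4 weeks that probe set was higher in transgenics without overlap, at 217 and 169.2 against 335.2 and 329.9. Bub1b, the checkpoint kinase BubR1, read 253 and 559.6 against 548 and 343 at 48 hours and 274 and 70.9 against 415 and 367 at 4 weeks, apart by 1.26 (SE 0.53, adjusted p = 0.965, limma). Its low value of 70.9 lies on the pool with the actin ratio of 37.0, and without that pool the difference was 0.47. The other probe sets of Bub1b gave −0.74 (SE 0.94) and 0.42 (SE 0.71) at 4 weeks, so that they disagreed in sign. Mad2l1, which holds back Cdc20 until chromosomes are attached, overlapped at both times, at 589 and 1429 against 1114 and 1053 and at 1265 and 522 against 1413 and 881.

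Motors and midzone proteins overlapped between genotypes at 48 hours, where 18.9% of all genes lay above and 16.1% below. At 4 weeks 2 of 4, Prc1 and Nusap1, lay above the controls, where 14.7% of all genes lay above and 17.2% below. Kif23, a motor of cytokinesis, read 1266 and 2906 in controls and 2028 and 1841 in transgenics at 48 hours, where the transgenics lay between the controls. After 4 weeks Kif23 read 1905 and 1489 against 1607 and 989, overlapping with a difference of −0.41 (SE 0.38). Prc1 read 239 and 1256 against 1145 and 709 at 48 hours, again between the controls, and 497 and 339 against 783 and 608 at 4 weeks, above them by 0.71 (SE 0.59), or 0.45 without control 4 weeks pool 2. Nusap1, which binds spindle microtubules, read 246 and 883 against 631 and 491.5 at 48 hours and 328 and 295 against 581 and 457 at 4 weeks, above the controls by 0.68 (SE 0.48), a value that was 0.51 to 0.84 when single pools were left out. Both genes of mitotic exit overlapped the controls at both times. Cdc20, whose promoter is printed above, read 985 and 2555 against 1449 and 1052 at 48 hours and 1151 and 832 against 1801 and 923 at 4 weeks, and Ube2c, the ubiquitin carrier that acts with it, read 150.3 and 268 against 260.3 and 82.7, then 233 and 10.2 against 291 and 203.

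**Figure D4:**
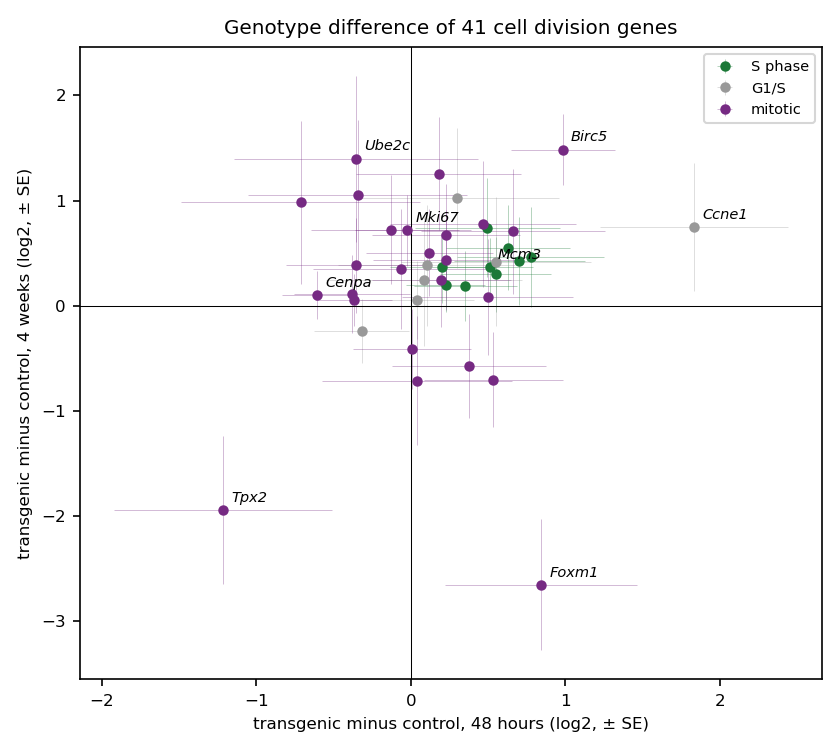
Log2 difference between transgenic and control pools at 48 hours (x axis) and 4 weeks (y axis) for the 41 cell division genes, with bars of 1 SE; the times share no samples. The green S phase genes sit together where both differences are positive, Birc5 lies beyond them, and Foxm1 and Tpx2 lie far below 0 at 4 weeks.

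Set against each other, the S phase and mitotic levels were apart by genotype, although neither was apart alone. The mean level of the 9 S phase genes, relative to their mean over the arrays, was −0.56 and 0.27 in controls and 0.52 and 0.17 in transgenics at 48 hours, and −0.07 and −0.53 against 0.31 and −0.10 at 4 weeks, in log2 units. The 25 mitotic genes stood at −0.40 and 0.54 against 0.44 and −0.23 and at 0.05 and −0.43 against 0.16 and −0.13. The difference between these means, S phase minus mitotic, was −0.17 and −0.27 in controls and 0.08 and 0.40 in transgenics at 48 hours, and −0.12 and −0.10 against 0.15 and 0.03 at 4 weeks. All 4 transgenic arrays were above all 4 controls. That order held in the fits with quantile normalization, a larger offset, a stricter filter, each probe set counted separately or cross-hybridising probe sets left out. It did not hold with no offset, with no filter or with medians over the genes in place of means, where 1, 2 and 1 of the 4 transgenic arrays were above all controls. It did not hold either in the wider lists of other replication and other mitotic genes described at the end. There replication minus mitotic was 0.12 and −0.33 in controls and −0.09 and 0.16 in transgenics at 48 hours, which overlap, and 0.18 and 0.09 against −0.11 and −0.01 at 4 weeks, where both transgenic pools lay below both controls. No test was made of the order, because the genes were chosen with earlier results known.

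**Figure D5:**
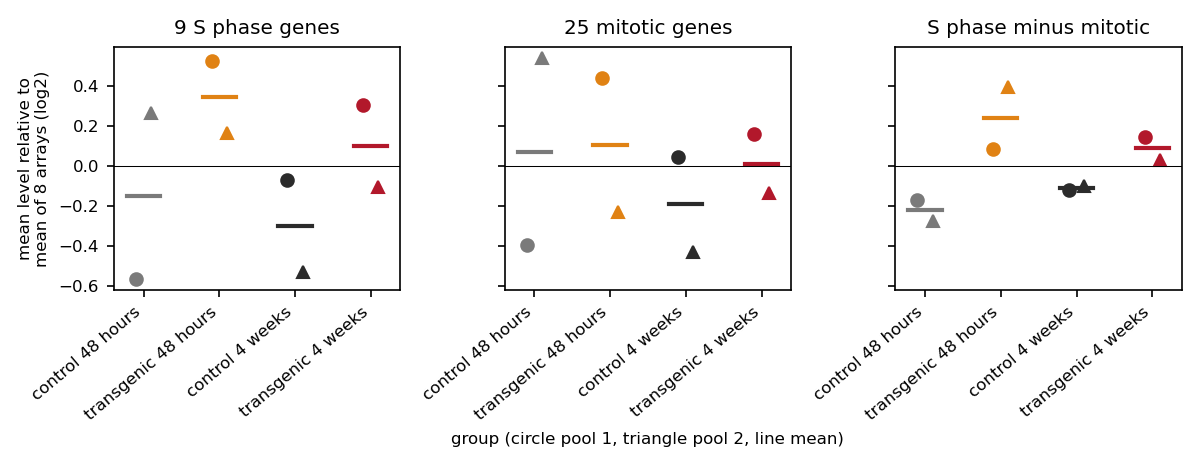
Mean level of the 9 S phase genes, of the 25 mitotic genes and the first minus the second on each array, in log2 units relative to the mean of the 8 arrays (circles pool 1, triangles pool 2, lines group means). Pools of 1 group are far apart in the panels of single lists, at −0.40 and 0.54 for mitotic genes in controls at 48 hours, whereas in the panel of the difference all transgenic arrays lie above 0 and all controls below it.

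Time alone, 4 weeks against 48 hours, was compared within each genotype; these comparisons share their pools with those of genotype. In controls 11 of 41 members were higher at 4 weeks (55.0% of all genes), with a median of −0.21 against 0.05 for all genes. No member passed the test, and of all genes 1 did (0.00767%). Without adjustment 3 of 41 members were under 0.05 (6.16% of all genes): Foxm1 at 2.09 (SE 0.62), Birc5 at −0.77 (SE 0.34) and Bub1b at −1.22 (SE 0.53), with adjusted p from 0.623 to 0.801 in limma. Without control 4 weeks pool 2 the Foxm1 value was 1.24 and that of Bub1b −0.43, and without control 48 hours pool 2 that of Bub1b was −0.69. Pools did not overlap for 4 genes that were higher, Foxm1, Aurka, Plk1 and Cdk1 (18.0% of all genes), and 3 that were lower, Birc5, Tk1 and Cenpa (13.8%). Of these, Plk1 passed the filter through control pools alone. The mitotic median was −0.41, and 0.17 without control 48 hours pool 2. In transgenics 16 of 41 were higher at 4 weeks (48.4% of all genes), and 1 of 41 was under 0.05 without adjustment (2.19%), Foxm1 at −1.41 (SE 0.62). That value rests on transgenic 48 hours pool 1, without which it was −0.51; without transgenic 48 hours pool 2 it was −2.31. Cenpa was higher without overlap (14.1% of all genes), and Foxm1, Cdk1, Kif23 and Mcm3 were lower (14.5%).

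The regulators around the division genes showed no shift that passed the test in either genotype comparison. Of all genes 54.0% were positive at 48 hours and 48.0% at 4 weeks. Of the G1 cyclins and kinases 3 of 6 were positive at each time; Ccnd3, cyclin D3, differed by 0.47 (SE 0.31) and Cdk4, its kinase, by 0.44 (SE 0.29) at 48 hours. Among CDK inhibitors and pocket proteins 6 of 9 were positive at each time, and Cdkn1c, the inhibitor p57, was at −0.79 (SE 0.35) at 4 weeks. The E2F and MuvB factors were positive for 9 of 14 at 48 hours and 6 of 14 at 4 weeks. At 4 weeks both transgenic pools lay below both controls for 7 of 14 (17.2% of all genes) and above for 0 (14.7%). Lin52, of the MuvB core, read 126 and 796 in controls and 104 and 30.2 in transgenics there, and E2f4, a repressor E2F, 97.3 and 140.0 against 51.0 and 4.9. The 796 of Lin52 lies on the pool with the actin ratio of 37.0. E2f4 is dim, and its values on control pool 1 and both transgenic pools lie below the array medians of 102, 105 and 101.
Other replication genes were positive for 19 of 23 at 48 hours (median 0.18) and 13 of 23 at 4 weeks (median 0.07). Orc1, of the origin recognition complex, was the lowest of them at 4 weeks, at 312 and 295 in controls and 35.8 and 15.9 in transgenics, a difference of −2.58 (SE 0.68, adjusted p = 0.893, limma) against the direction of the Mcm genes. These transgenic signals lie below the array medians of 105 and 101 and cannot be told from background. The control pools of Orc1 at 48 hours read 54.3 and 264.6. Other mitotic genes were positive for 19 of 30 and 18 of 30, with medians of 0.13 and 0.11, so that the median of 0.39 at 4 weeks in the listed mitotic genes was larger than that of a wider list.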

How the data were processed

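Signal intensity per probe set of an Affymetrix mouse array was deposited by the authors. It was made with MAS5, per the submitters' processing notes; version and genome build are not given in the sources used here. RNA was amplified in a two-cycle protocol per the labels' protocols. Of 45101 probe sets, 64 controls and those with several symbols (932) or none (9160) were left out. Each gene took its probe set of highest mean signal, kept where it was above the array median on at least 2 arrays (13041 genes). Log2(signal + 30.8), with the 25th percentile as offset, was fitted in limma 3.58.1 (R 4.3.3) with a mean for each of 4 groups and a trend in the prior variance. Residual degrees of freedom were 4, with a median of 6.21 more from the prior. Benjamini-Hochberg adjustment ran over all genes. For genotype over both times, time was a covariate. The labels name pools of 3 mice, and precision is limited by the 8 arrays. Fold differences of dim genes are understated by the offset. The pipeline was tested on simulated data. Figures used Python 3.11.15 and matplotlib 3.10.9.

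The genes and lists were chosen with earlier results of these data known, so no p is given for a list. Given on all arrays are the pair of highest mean signal in each role and the 3 smallest p of each genotype and time contrast, with Mcm3, Mcm5 and Mcm6 added for their pools or promoters; other genes were named after their values were seen. Same-numbered pools are not paired by the labels.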

Additional observations from a re-analysis of the deposited data

How the results depend on the processing

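No member passed the threshold under any alternative, in any of the 6 comparisons; these were a larger offset of 108.1 or none, a stricter filter or none, quantile normalization, other choices of probe set, no trend, array weights, the 4 arrays of a comparison alone, the actin ratio as a covariate, and each pool left out. Leaving out probe sets that can cross-hybridise, the settings for S phase minus mitotic, and single pools left out for further members and roles were added after seeing the data. Members with an unadjusted p under 0.05 numbered 0 to 13 at 48 hours and 2 to 8 at 4 weeks, highest without control 48 hours pool 2 (13) and without control 4 weeks pool 1 (8). With pool number as a replicate block 0 members were called in each comparison, and no call changed; the pools' deviations correlated at −0.09 to 0.13 between groups, so the numbers were not taken to pair them.

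Leaving out single pools moved the S phase median from 0.027 to 1.08 and the mitotic median from −0.55 to 0.63 at 48 hours. The same medians ranged from −0.71 to 0.22 and from −0.79 to 0.17 for time in controls. Mki67 at 48 hours ranged from −0.65 to 0.61 and turned positive without control pool 2 or without transgenic pool 2 (0.025). The genotype difference in S phase minus mitotic level, 0.46 at 48 hours, was 0.31 to 0.62 with pools left out, 0.33 with no filter, 0.59 with each probe set separately and 0.13 in the wider lists of replication and mitotic genes. At 4 weeks it was 0.20, and 0.051 with no offset, 0.39 with each probe set separately, 0.35 without cross-hybridising probe sets, 0.072 with medians and −0.20 in the wider lists. The cause was not tested. Without detection calls, dim signals cannot be told from background.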
